A study of Mus musculus with 2 samples.

Results

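Nociceptin inhibitory nuclei without galanin or dynorphin transcripts are the subject here: 178 nuclei (81 injured and 97 naive) of the 7610 nuclei of the dynorphin lineage in the study, and of the 4082 that count as inhibitory. They were chosen by counts of unique molecular identifiers (UMIs), tags by which each captured RNA molecule is counted a single time. A nucleus was taken as inhibitory when its UMIs of Gad1, Gad2, Slc32a1 and Slc6a5 summed to at least 2. It also had to hold none of Slc17a6, the vesicular glutamate transporter of spinal excitatory neurons. A nociceptin nucleus also had at least 2 UMIs of Pnoc, the gene of the nociceptin precursor. It had no UMI of Pdyn (prodynorphin), Gal (galanin) or Npy (neuropeptide Y), fewer than 2 of Tac2, Cartpt or Penk, and fewer than 20 of the receptor tyrosine kinase gene Alk. The values of these 13 genes chose the nuclei and are given below as a description only.

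The study sorted nuclei from the dorsal part of the lumbar spinal cord, segments L3-L5, of adult mice by green fluorescence and sequenced them in droplets. All mice of both groups were Pdyn-IRES-Cre(+/-); R26-LSL-Sun1.eGFP(+/-): Cre recombinase under control of the Pdyn gene switches on a fluorescent nuclear envelope protein for good, so that a nucleus is labelled if its cell transcribed Pdyn at any age. In the injured group the left hindpaw had been surgically incised on the plantar side at postnatal day 3. The naive group were littermates exposed only to isoflurane on that day. Each group is 1 library pooled from 8 mice of either sex, so no difference between injured and naive has a replicate check, and intervals (95%) cover counting error only. Mice within a pool cannot be told apart, and fewer active cells and less RNA per nucleus cannot be told apart in summed counts.

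Nociceptin, also called orphanin FQ, is a peptide of the opioid family that binds its own receptor, Oprl1, rather than the classical mu, delta and kappa receptors Oprm1, Oprd1 and Oprk1. Inhibitory interneurons of the dorsal horn release GABA, glycine or both, and are commonly divided by their peptides and enzymes, among them galanin with dynorphin, neuropeptide Y, neuronal nitric oxide synthase (Nos1) and parvalbumin. In the mouse, many of the galanin and dynorphin interneurons also transcribe Pnoc.

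The injured library held 32934588 UMIs in 3547 nuclei (median 8464 per nucleus) and the naive library 30602222 in 4063 (median 6955). The nociceptin nuclei were slightly deeper than the rest of the inhibitory nuclei in both libraries, with medians of 8879 UMIs against 8248 in injured and 7326 against 6904 in naive. The libraries shared 3 barcodes, none of them of a nociceptin nucleus. The summed neuron markers Snap25, Rbfox3, Syt1 and Meg3 stood at 13510 and 12900 CPM (summed UMIs scaled to the same total in every set and library) in injured and naive nociceptin nuclei, against 13750 and 13640 CPM in the other inhibitory nuclei. Of the 5 excitatory markers, Slc17a6 (by the rule) and Phox2a were at 0, and the other three had 5 and 4 UMIs together. The 4 measured markers of cholinergic and motor neurons were all at 0. The 6 oligodendrocyte markers summed to 153.9 CPM in injured and 62.96 CPM in naive nociceptin nuclei, and to 156.7 and 87.11 CPM in the other inhibitory nuclei. The 3 markers of cerebrospinal fluid-contacting neurons (Pkd2l1, Pkd1l2, Myo3b) summed to 8.029 and 62.96 CPM, against 192.4 and 244.4 CPM in the other inhibitory nuclei.

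Pnoc, at chr14:65400673-65425472 on the minus strand of GRCm38 (mm10), had a lowest count of 2, a median of 2 and a highest of 6 UMIs per injured nociceptin nucleus. In naive nociceptin nuclei the lowest was 2, the median 2 and the highest 4. Most members therefore sat at the limit of the rule: 54 of 81 injured and 57 of 97 naive nuclei had exactly 2 Pnoc UMIs. Just outside it, 140 injured and 148 naive nuclei met every other part of the rule with a single Pnoc UMI, and 460 and 427 had none. Excitatory nuclei and nuclei with oligodendrocyte markers served as a measure of free Pnoc RNA in the droplets. A count of at least 2 Pnoc UMIs was found in 0 of 475 injured excitatory nuclei (exact upper limit 0.774%) and in 1 of 484 naive ones (0.207%), although these nuclei were deeper (medians of 10570 and 8937 UMIs). Among nuclei with oligodendrocyte markers it was found in 1 of 42 injured (2.38%, exact interval 0.0603 to 12.6%) and 0 of 38 naive ones (exact upper limit 9.25%), at medians of 3192 and 2198 UMIs. At least 1 Pnoc UMI was found in 41.6% of injured and 44.8% of naive inhibitory nuclei, against 4.84% and 6.82% of excitatory ones.

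The transmitter genes that let a nucleus into the set were of both kinds. Slc6a5, the transporter by which glycine neurons take up glycine, had a UMI in 57 of 81 injured and 57 of 97 naive nociceptin nuclei. The GABA-synthesizing enzyme genes Gad1 and Gad2 had one in 54 and 53 injured nuclei and in 58 and 70 naive nuclei. Slc32a1, the vesicular transporter for both transmitters, had one in 38 injured and 57 naive nuclei. Pax2, an inhibitory lineage transcription factor outside the rule, had a UMI in 50 of 81 injured and 54 of 97 naive nociceptin nuclei. Of the other genes with a limit above 0, Alk had highest counts of 19 in injured and 13 in naive nuclei. A single UMI, the most allowed, was held by 17 injured and 32 naive nuclei for Penk. For Cartpt 10 and 11 nuclei held one, and for Tac2 1 and 1.

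Nociceptin nuclei made up 4.21% of the inhibitory nuclei in the injured library (exact interval 3.36 to 5.20%) and 4.50% in the naive library (3.66 to 5.46%). The intervals overlap over most of their length. The level of these shares depends on the limit for Pnoc: with at least 1 UMI they were 11.5% and 11.4%, and with at least 3 they were 1.40% and 1.85%. They also depend on depth. When every nucleus was first thinned to 3000 UMIs, the shares were 2.17% (20 of 922 injured) and 1.998% (23 of 1151 naive).

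Set against all other inhibitory nuclei, 1844 injured and 2060 naive, the nociceptin nuclei had higher Nos1, Prkg2, Pamr1, Lama2, Slit3 and Hcrtr2, and lower Rgs6, Meis2, Zfhx3 and Rorb. Counts were summed per library and set, and the 4 sums were tested with edgeR's quasi-likelihood test with the library as a block (Benjamini-Hochberg adjusted p under 0.05). Each gene has 1 residual degree of freedom, and its variance was estimated with information pooled over all genes. The p-values therefore rest on that pooling as well as on the 2 libraries, and they do not measure spread between mice. Of 11376 genes tested, 379 rose (3.33%) and 324 fell (2.85%), 6.18% together. The reference holds the nuclei with galanin, dynorphin, neuropeptide Y, Tac2, Cartpt, Penk or high Alk that the rule removed from the set, so a gene that marks them can be lower here by the choice of nuclei.

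Nos1 (chr5:117781032-117958840), the neuronal enzyme that makes nitric oxide, stood at 122 CPM in injured and 185 CPM in naive nociceptin nuclei, against 50.2 and 78.1 CPM in the other inhibitory nuclei. It was higher in the nociceptin nuclei of either library, with a log2 fold change of 1.33 ± 0.13 (SE; edgeR adjusted p = 6.78e-22) and a UMI in 50.6% of nuclei against 22.1%. Prkg2, a protein kinase activated by the cyclic GMP that nitric oxide signalling produces, stood at 66.9 and 76.1 CPM against 23.6 and 30.2 CPM (log2 1.48 ± 0.18, adjusted p = 9.5e-14). Both genes were higher in either library. After thinning to 3000 UMIs, Nos1 was still seen in 25.9% of injured and 41.2% of naive nociceptin nuclei, against 10.7% and 14.6% of the others.

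Several other leading genes encode secreted or matrix proteins, a description made after their values were seen. Pamr1, which encodes a secreted protease-like protein, stood at 44.2 and 66.9 CPM against 15.8 and 21.8 CPM (log2 1.63 ± 0.21, adjusted p = 2.34e-12). Lama2, a laminin chain of the basement membrane, stood at 146 and 143 CPM against 56.4 and 63.9 CPM (log2 1.34 ± 0.13, adjusted p = 4.66e-21). The collagen genes Col26a1, Col24a1 and Col6a6 rose by 1.39, 1.23 and 1.48 on the log2 scale. Slit3, a secreted axon guidance ligand, and Robo3, a receptor of the family that Slit proteins bind, both rose by 1.29. Over the whole list of guidance and adhesion genes, 19 of 48 tested rose and 13 fell (median log2 fold change 0.09, against -0.003 for all genes). Those that fell were led by Cntnap5a, a contactin-associated protein gene (280 and 164 CPM against 828 and 718 CPM, log2 -1.74 ± 0.09, adjusted p = 1.69e-74). Tmco4 had the highest fold change of all named genes (log2 1.79 ± 0.29, adjusted p = 3.55e-08), but from only 9 injured and 33 naive UMIs; it and Col6a6 did not pass in DESeq2, and Col6a6 and Robo3 did not after thinning.

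**Figure D1:**
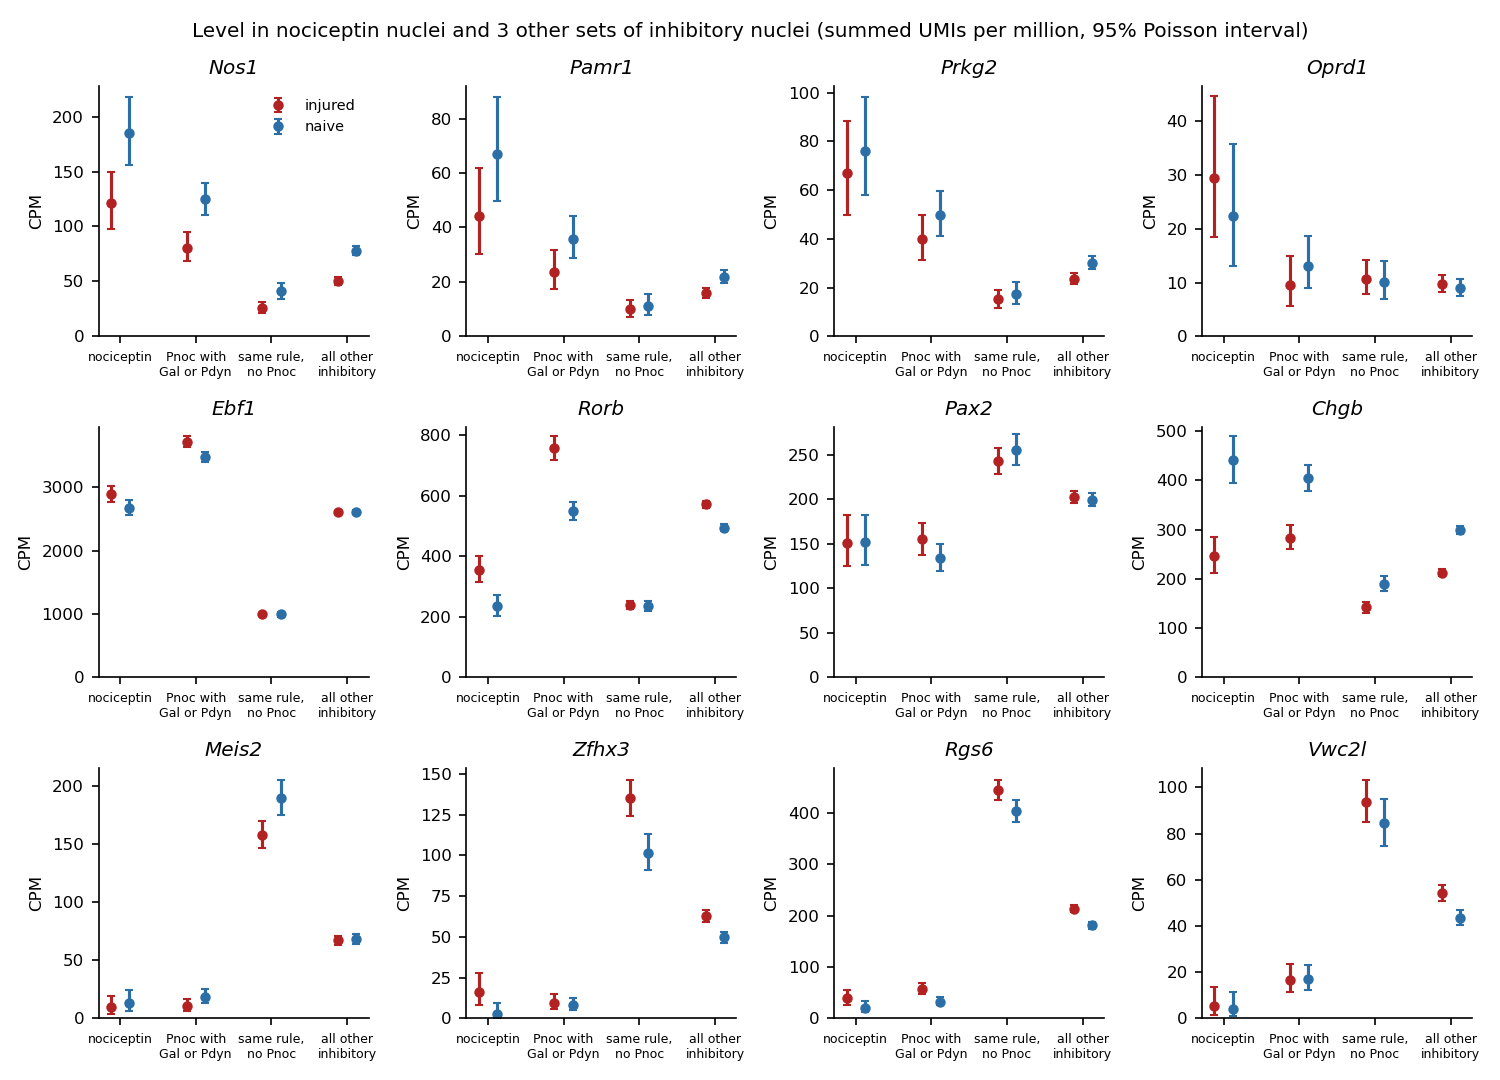
Levels of 12 genes (CPM, y axis from 0) in nociceptin nuclei, in nuclei with Pnoc plus galanin or dynorphin counts, in same-rule nuclei without Pnoc, and in all other inhibitory nuclei. Red points are the injured and blue points the naive library, and bars are 95% Poisson intervals. Nos1, Pamr1 and Prkg2 are highest in the nociceptin nuclei of both libraries, while Meis2, Zfhx3, Rgs6 and Vwc2l are low there and highest in the nuclei without Pnoc.

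Among receptors of peptides, 5 of 16 tested rose and none fell. The opioid receptor genes were uneven. Oprd1, the delta receptor, stood at 29.4 and 22.3 CPM (22 and 17 UMIs) against 9.76 and 8.996 CPM, a log2 fold change of 1.53 ± 0.29 (adjusted p = 7.12e-06). Oprm1, the mu receptor, stood at 158 and 194 CPM against 121 and 132 CPM (0.55 ± 0.11, adjusted p = 4.36e-05), with a UMI in 73.0% of nuclei against 50.1%. Neither passed in DESeq2, and Oprm1 did not with Pnoc of at least 3. The kappa receptor Oprk1 had 13 and 22 UMIs (0.06 ± 0.27, adjusted p = 0.967), and the nociceptin receptor Oprl1 had 8 and 10 UMIs (-0.09 ± 0.36, adjusted p = 0.959). The orexin receptor Hcrtr2 (371 and 358 CPM against 216 and 206 CPM, 0.86 ± 0.09, adjusted p = 1.59e-18), the neurokinin receptor Tacr3 (0.84 ± 0.13) and the thyrotropin-releasing hormone receptor Trhr (0.74 ± 0.16) also rose.

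Genes of inhibitory and excitatory transmission outside the rule were mixed. The chloride exporter gene Slc12a5 stood at 182 and 177 CPM against 165 and 203 CPM (0.04 ± 0.11, adjusted p = 0.93). Among 20 GABA and glycine receptor subunits, 2 rose and 3 fell. The GABA-A subunit Gabrb1 fell to 163 and 205 CPM, against 376 and 316 CPM (-0.83 ± 0.10). Glutamate receptor genes moved in both directions, with 6 of 23 higher and 3 lower. The NMDA subunit Grin3a fell (-1.09 ± 0.17).

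Potassium channel genes and their auxiliary subunits were higher more often than lower, 12 against 6 of 37 tested. Kcnip4 (chr5:48389502-49524907), which encodes a protein bound to A-type potassium channels, stood at 23806 and 20141 CPM against 14397 and 14243 CPM (0.69 ± 0.05, adjusted p = 2.47e-45). The sodium channel Scn9a fell to 41.5 and 36.7 CPM, against 119 and 101 CPM in the others (-1.42 ± 0.18, adjusted p = 9.38e-14). The serotonin receptors Htr2c (0.49 ± 0.07), Htr7 (0.54 ± 0.12) and Htr1a (1.38 ± 0.41, from 7 and 11 UMIs) rose, and the muscarinic receptor Chrm2 fell (-1.96 ± 0.19). Chgb and Scg2, granule proteins of peptide-releasing cells, rose by 0.48 ± 0.09 and 0.26 ± 0.08.

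Transcription factors of the dorsal horn were mostly lower: 11 of 30 fell and 2 rose (median log2 fold change -0.56, against -0.003 for all genes). Meis2, a homeobox factor, had 7 injured and 10 naive UMIs, in 1.69% of nociceptin nuclei (9.37 and 13.1 CPM against 67.0 and 68.2 CPM, -2.51 ± 0.27, adjusted p = 1.12e-17). Zfhx3 had 12 and 2 UMIs (-2.52 ± 0.30). Rorb, which marks a group of dorsal horn interneurons in the mouse, stood at 356 and 236 CPM against 572 and 495 CPM (-0.79 ± 0.09, adjusted p = 4.07e-16). It was not lower than in nuclei that met the rest of the rule without Pnoc, which had 238 and 237 CPM. There it was called higher, a call lost in DESeq2, after thinning, without the library block and with Pnoc of at least 3. Pax2 was near the limit of the test (151 and 152 CPM against 202 and 200 CPM, -0.33 ± 0.11, adjusted p = 0.048). The nuclear factor genes Nfib and Nfix rose by 0.50 and 0.62. Outside the lists, among named genes (seen in at least 10% of the reference nuclei), the lowest were Vwc2l (4 and 3 UMIs), Nckap5 (2 and 4 UMIs) and Rgs6. Rgs6, whose product limits G protein signals, stood at 38.8 and 21.0 CPM against 213 and 181 CPM (-2.65 ± 0.17, adjusted p = 5.73e-51). Genes that were not named could lie lower. Foxo1 was called lower with 0 UMIs against 340 in the reference, and Gucy1a3 with 1 against 327 (ratio 0.0653, counting interval 0.00165 to 0.367). All 3 markers of cerebrospinal fluid-contacting neurons fell as well, at the summed levels given above. Immediate early, heat shock, ribosomal protein and mitochondrially encoded genes had no member called. DESeq2 called fewer genes, 136 higher and 96 lower, all of them among those called by edgeR.

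The nociceptin nuclei were also set against nuclei that met every other part of the rule and had no Pnoc UMI (460 injured and 427 naive). This comparison gave more differences: 683 genes of 11490 rose (5.94%) and 658 fell (5.73%), 11.7% together. Nos1 rose further, to 122 and 185 CPM against 26.2 and 41.0 CPM (log2 2.29 ± 0.15, adjusted p = 3.5e-10). Pamr1 (2.47 ± 0.25), Prkg2 (2.24 ± 0.21), Lama2 (2.28 ± 0.15) and Robo3 (2.03 ± 0.23) were again among the 12 highest. They were joined by Prox1, a homeobox factor (151 and 115 CPM against 32.3 and 37.3 CPM, 2.05 ± 0.17, adjusted p = 8.98e-09; its antisense gene Prox1os had 49 UMIs in the nociceptin nuclei against its own 201), the ryanodine receptor calcium channel Ryr1 (2.30 ± 0.32) and gelsolin, Gsn, which severs actin filaments (2.08 ± 0.26).

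Peptide receptors moved furthest among the receptor lists, with 8 of 20 higher and 4 lower (median log2 fold change 0.43, against -0.011 for all genes). Tacr3 stood at 149 and 125 CPM against 36.8 and 36.7 CPM (adjusted p = 4.1e-09). Trhr (1.77 ± 0.21), the somatostatin receptor Sstr2 (1.36 ± 0.26) and Hcrtr2 (1.33 ± 0.10) rose as well. Tacr1, the substance P receptor, had a single UMI in all 178 nociceptin nuclei, against 13.5 and 8.50 CPM in the reference (adjusted p = 0.00259). Among granule proteins, Scg2 rose to 499 and 581 CPM against 194 and 260 CPM (1.36 ± 0.10, adjusted p = 9.29e-10) and Chgb by 1.13 ± 0.11, while Chga stood at 28.1 and 42.0 CPM against 47.1 and 50.1 CPM. Ebf1, a transcription factor, stood at 2894 and 2683 CPM against 994 and 995 CPM (1.59 ± 0.07, adjusted p = 2.91e-12).

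Of the dorsal horn transcription factors, 16 of 32 fell and 5 rose against the nuclei without Pnoc (median -0.77). The log2 fold changes were -3.84 for Meis2, -3.56 for Zfhx3, -3.21 for Zfpm2 and -2.56 for Pbx3. Pax2 was lower (151 and 152 CPM against 243 and 256 CPM, -0.61 ± 0.11, adjusted p = 0.000587), while the related Pax8 was higher (191 and 169 CPM against 125 and 119 CPM, 0.67 ± 0.12). Rgs6 stood at 38.8 and 21.0 CPM against 445 and 403 CPM (-3.72 ± 0.17, adjusted p = 1.3e-12) and was seen in 8.43% of nociceptin nuclei against 48.8% of those without Pnoc. Akr1b10, an aldo-keto reductase gene, had no UMI in the nociceptin nuclei and 120 in the reference, so it was at least 7.81-fold lower (a floor of 3 UMIs over both libraries). Gucy1a3, a subunit of the guanylyl cyclase that nitric oxide activates, had 1 UMI, a ratio of 0.0397 to the reference (counting interval 0.000997 to 0.225). Chrm2 and Scn9a were lower in this comparison too, with log2 fold changes of -3.09 and -2.07. Markers of cerebrospinal fluid-contacting neurons were high in the reference and fell here (Pkd1l2 to 1.34 and 19.7 CPM, against 198 and 363 CPM), and 2 Schwann cell markers and the fibroblast marker Dcn fell with them. Of 3 tested oligodendrocyte markers Mbp rose (76.3 and 42.0 CPM against 39.7 and 38.6 CPM, 0.70 ± 0.21, adjusted p = 0.0297). The part of these cell types in the other differences was not tested. DESeq2 called 223 genes higher and 194 lower. Of 29 genes looked up in it, 20 passed, and Sstr2, Tacr1, Akr1b10 and Gucy1a3 were among the 9 that did not. For the other genes named in this comparison the result in DESeq2 is not given.

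Nuclei just outside the limit, with 1 Pnoc UMI, had levels between those without Pnoc and the nociceptin nuclei for the leading genes of that contrast. With 0, 1, 2 and at least 3 Pnoc UMIs, Nos1 stood at 26.2, 90.1, 118 and 130 CPM in injured nuclei and at 41.0, 124, 169 and 207 CPM in naive nuclei. Lama2 stood at 32.5, 70.1, 112 and 212 CPM in injured and at 31.3, 82.2, 131 and 160 CPM in naive nuclei. Both genes are thus ordered along the Pnoc count in either library. Rgs6 ran the other way, at 445, 98.4, 52.8 and 11.8 CPM in injured and 403, 134, 31.5 and 6.28 CPM in naive nuclei. These levels are a description, since the Pnoc count is the value that chose the nuclei. Slc32a1, which the rule used, stood at 55.7, 48.4, 73.1 and 51.0 CPM in injured and at 84.4, 86.9, 92.4 and 97.3 CPM in naive nuclei, without an order in the injured library.

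**Figure D2:**
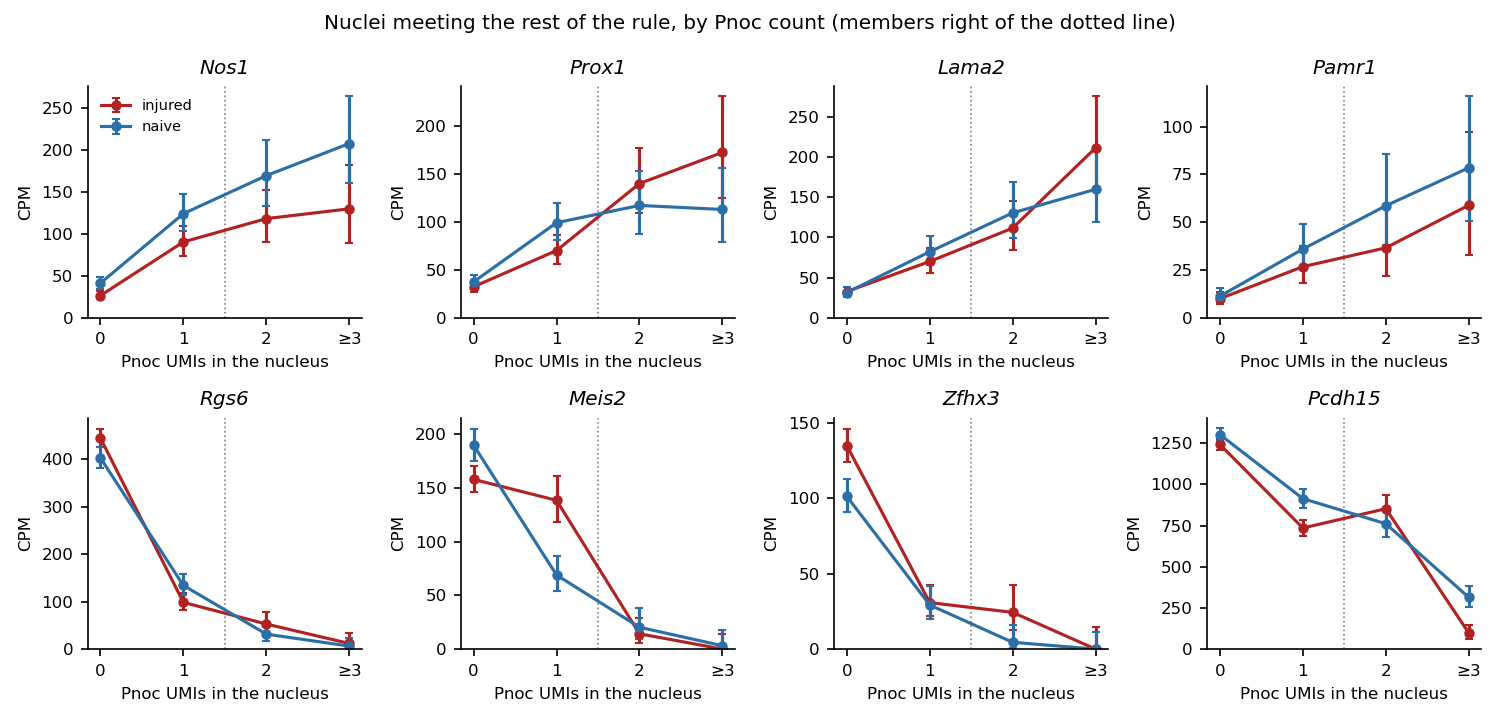
Levels of 8 genes (CPM, y axis from 0) in nuclei meeting the rest of the rule, by their number of Pnoc UMIs (x axis), with nociceptin nuclei right of the dotted line. Red is the injured and blue the naive library, with 95% Poisson intervals. Nos1, Lama2 and Pamr1 increase with each step in both libraries, and Rgs6 and Zfhx3 decrease to near 0.

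The closest set is that of nuclei with at least 2 Pnoc UMIs that also held a galanin or dynorphin UMI (200 injured and 288 naive). Fewer genes separated it from the nociceptin nuclei: of 11241 tested, 185 rose (1.65%) and 116 fell (1.03%), 2.68% together. That set was not held to the rule's other limits. Its Alk, for example, stood at 1317 and 609 CPM, against 464 and 378 CPM in the nociceptin nuclei. A gene that marks nuclei with high Alk, neuropeptide Y, Tac2, Cartpt or Penk can therefore be lower here by the choice of nuclei. Pnoc itself was at 272 and 320 CPM in the nociceptin nuclei and 283 and 337 CPM in that set, which the same limit selected. Some traits given above were shared with that set. After thinning, Rgs6 was seen in 6.17% of injured and 3.09% of naive nociceptin nuclei, against 7.54% and 3.82% of that set. Hcrtr2 was seen in 54.3% and 55.7% against 48.7% and 51.4%, and Prox1 in 27.2% and 30.9% against 34.7% and 31.6%. Rorb stood at 356 and 236 CPM against 757 and 548 CPM (-1.13 ± 0.10, adjusted p = 5.14e-29), and Pde11a, a phosphodiesterase of cyclic AMP and cyclic GMP, at 351 and 209 CPM against 795 and 542 CPM (-1.25 ± 0.10, adjusted p = 9.58e-35). Nos1 was higher in the nociceptin nuclei here also (122 and 185 CPM against 80.9 and 125 CPM, 0.60 ± 0.14, adjusted p = 0.00125), a call lost in DESeq2, without the library block and with Pnoc of at least 3.

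The cadherin Cdh20 stood at 261 and 199 CPM against 94.0 and 92.9 CPM (1.31 ± 0.13, adjusted p = 1.59e-21), and Pcdh15, a protocadherin, at 595 and 575 CPM against 233 and 209 CPM (1.43 ± 0.10, adjusted p = 6.04e-46). Guidance and adhesion genes as a list had 13 of 48 members higher and 3 lower (median 0.14, against 0.005 for all genes). The potassium channel Kcnh8 rose by 2.08 ± 0.21, the NMDA subunit Grin2a by 0.92 ± 0.11 and the dopamine receptor Drd2 by 1.29 ± 0.38, the last from 19 and 12 UMIs. Oprd1 (1.19 ± 0.35) and Oprm1 (0.50 ± 0.13) were higher than in the galanin and dynorphin set too. Those lower in the nociceptin nuclei included Mlxipl, a carbohydrate-responsive transcription factor (6 and 7 UMIs, -2.21 ± 0.35), the kinase Prkd1 (-1.39 ± 0.22), Scg2 (499 and 581 CPM against 683 and 769 CPM, -0.41 ± 0.08) and Ebf1 (-0.35 ± 0.06). No GABA or glycine receptor subunit of 20 passed, and dorsal horn transcription factors had 2 of 29 lower, Rorb and Ebf1, and none higher. With Pnoc of at least 3 in both sets only 4 genes were higher and 15 lower, and the fold changes of Pcdh15 (-0.45) and Sgcd (-2.13) turned round. DESeq2 called 30 and 15, and of 28 named genes 5 passed in it. Kcnh8, Drd2, Oprd1, Oprm1, Mlxipl and Prkd1 passed neither there nor with Pnoc of at least 3, where Cdh20 did not pass either. With the reference held to the rule's other limits, a choice made after seeing the data, 20 of the 28 kept their call. Oprd1 was among the 8 that did not.

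The 178 nociceptin nuclei were not uniform. After thinning to 3000 UMIs, 194 of 4934 genes with a mean of at least 0.1 UMIs had a variance over 1.5 times the mean in both libraries, where the median gene had 1.05. Kcnip4 led (Fano factor, the variance over the mean, 20.5), followed among named genes by Malat1 (15.9), a nuclear noncoding RNA, Nrg1 (12.5), the growth factor neuregulin, and Gpc5 (11.5), a heparan sulfate proteoglycan. Kcnip4 counts had a low and a high range with few nuclei between them, but no gap. Of all members, 23 nuclei had fewer than 10 thinned UMIs, 6 had 10 to 19, 2 had 20 to 29, and 147 had 30 or more, up to 160. A limit of 30, chosen after seeing these counts, put 16 of 81 injured (19.8%, exact interval 11.7 to 30.1%) and 15 of 97 naive nociceptin nuclei (15.5%, 8.92 to 24.2%) on the low side. Within 10 UMIs of this limit, on either side, lay 3 injured and 6 naive nuclei. Among nuclei without Pnoc the low side held 68.6% and 70.5%, among all other inhibitory nuclei 44.8% and 42.7%, and among Pnoc nuclei with galanin or dynorphin 15.1% and 10.8%.

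**Figure D3:**
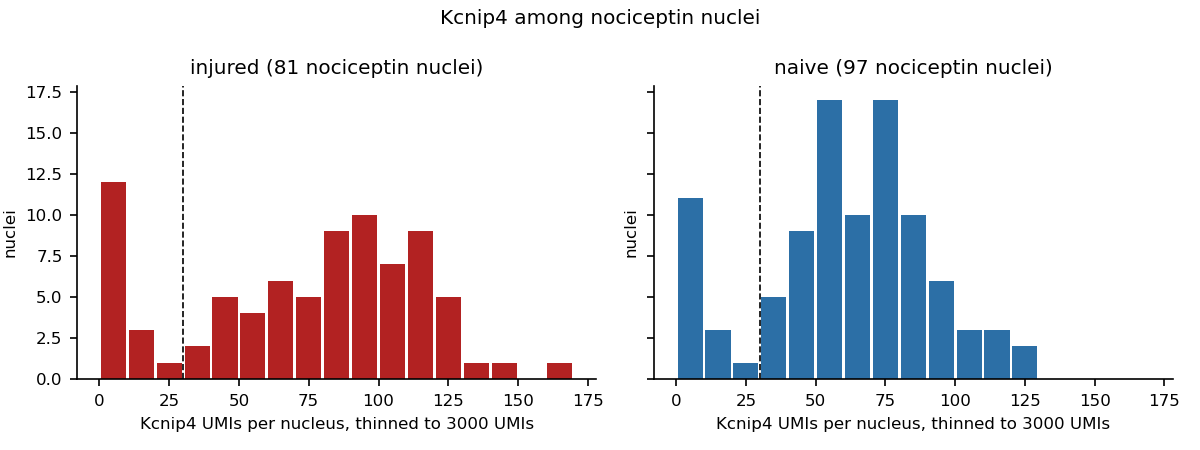
Kcnip4 UMIs per nociceptin nucleus after thinning to 3000 UMIs (x axis, bins of 10) against the number of nuclei (y axis), in the injured library on the left and the naive library on the right. The dashed line marks the limit of 30, below which lie 16 injured and 15 naive nuclei.

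The Kcnip4-high nociceptin nuclei could be divided again by genes that alternated among them, by whether Rorb, Pde11a and Ankfn1 together had more thinned UMIs than Pcdh7 and Htr2c together. This division was also chosen after seeing the data, the genes that define it are not findings, and 7 injured and 8 naive nuclei lay within 1 UMI of the limit. The side with more Rorb, Pde11a and Ankfn1 held 23 injured (28.4%) and 22 naive nuclei (22.7%), and the side with more Pcdh7 and Htr2c held 42 (51.9%) and 60 (61.9%). Nos1 lay with the Pcdh7 side, at 197 CPM in injured and 273 CPM in naive nuclei, against 10.2 and 24.4 CPM on the Rorb side and 75.0 and 57.7 CPM in Kcnip4-low nuclei. Pamr1 had the same pattern (79.1 and 103 CPM on the Pcdh7 side against 5.12 and 12.2 CPM on the Rorb side). Per nucleus and after thinning, Nos1 and Rorb were seen together in 4 injured and 7 naive nociceptin nuclei, Nos1 alone in 17 and 33, Rorb alone in 27 and 30, and neither in 33 and 27. Oprd1 had 48.5 and 33.6 CPM on the Pcdh7 side and 0 and 6.09 CPM on the Rorb side, from few UMIs.

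The Kcnip4-low nuclei had their own leading genes. Sorcs1, a sorting receptor, stood at 1412 and 865 CPM in them, against 97.2 and 91.3 CPM on the Rorb side and 7.66 and 8.39 CPM on the Pcdh7 side. Nrg1 stood at 4294 and 2932 CPM, against 343 and 122 CPM and 579 and 227 CPM. Adarb2, of the RNA editing enzyme family, the metabotropic receptor Grm3 and the tyrosine phosphatase Ptprt were high there as well. Prox1 had 1 UMI in the Kcnip4-low nuclei of both libraries together, and 230 and 128 CPM on the Rorb side and 171 and 141 CPM on the Pcdh7 side. Ebf1 was at 663 and 1170 CPM in Kcnip4-low nuclei, 4501 and 4104 CPM on the Rorb side and 3004 and 2578 CPM on the Pcdh7 side. Pax2 was at 294 and 428 CPM in Kcnip4-low nuclei, 123 and 116 CPM on the Rorb side and 107 and 94.4 CPM on the Pcdh7 side. Pnoc, which the rule used, was at 213 and 288 CPM, 266 and 323 CPM, and 299 and 327 CPM in the same order. These levels are descriptions of few nuclei and carry no test.

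**Figure D4:**
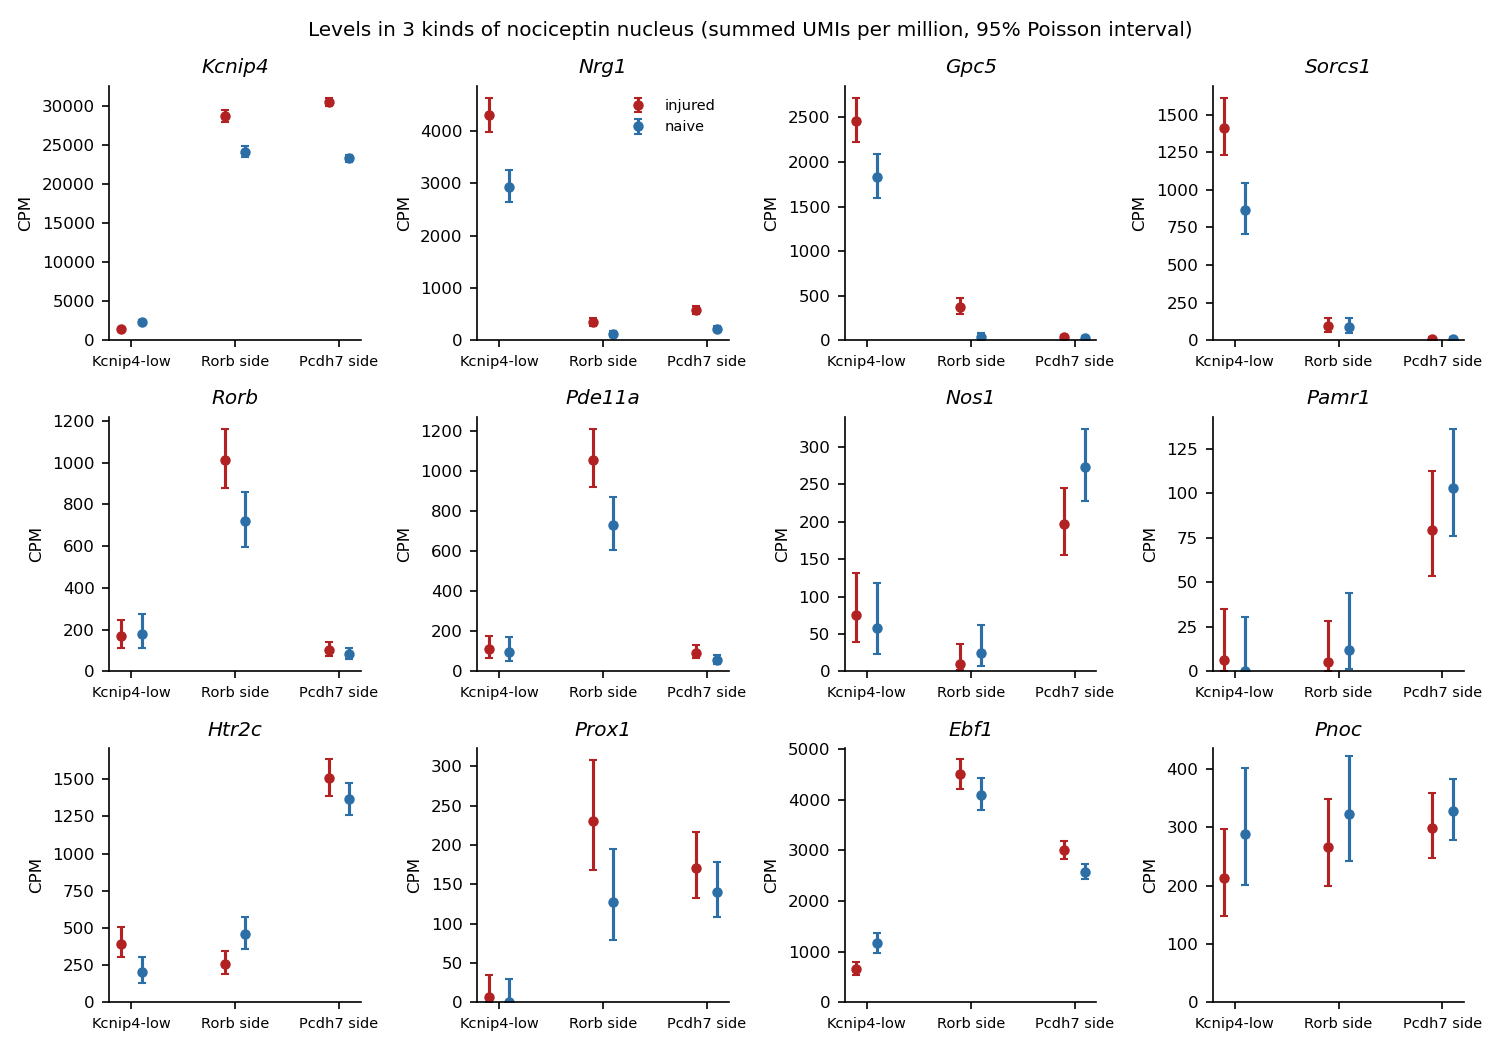
Levels of 12 genes (CPM, y axis from 0) in 3 kinds of nociceptin nucleus: Kcnip4-low, Rorb side and Pcdh7 side. Red is the injured and blue the naive library, with 95% Poisson intervals. Sorcs1, Nrg1 and Gpc5 are high in Kcnip4-low nuclei, Pde11a and Rorb on the side they define, and Nos1, Pamr1 and Htr2c (which helped to define it) on the Pcdh7 side.

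Between injured and naive nociceptin nuclei the question is whether neonatal paw surgery leaves these nuclei with other transcript levels in adulthood. Counts of the 81 and 97 nuclei were summed (747337 and 762339 UMIs), and the ratio of injured over naive CPM was taken for the 2635 genes with at least 100 UMIs. There is no test, since each group is 1 library. The sex mix also differed: 25 injured and 20 naive nuclei held Y-linked and no Xist UMIs, and 53 and 72 held Xist and no Y-linked UMIs. The part of this mix in the ratios was not tested. A ratio of at least 1.5 was found for 52 genes (1.97%) and of at most 1/1.5 for 56 genes (2.13%), 4.1% together, and the log2 ratios of all genes had their 5th and 95th percentiles at -0.457 and 0.427.

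The highest ratio was that of Sgcd, a subunit of the sarcoglycan complex, with 244 CPM in injured and 87.9 CPM in naive nociceptin nuclei (2.77, counting interval 2.08 to 3.72). It rests on few nuclei: 5 of them held 96.2% of its injured and 89.6% of its naive UMIs, and without the 10% of members with most UMIs the ratio was 0.22. Kcnh8 (119 and 55.1 CPM, 2.16), Nrg1 (1313 and 635 CPM, 2.07), Sorcs1 (332 and 163 CPM, 2.04), Gpc5 (648 and 320 CPM, 2.02) and Edil3 (124 and 63.0 CPM, 1.98) are genes high in Kcnip4-low nuclei, which made up 19.8% of the injured and 15.5% of the naive set; the part of that share in the ratios was not tested beyond leaving those nuclei out. Few nuclei held many of the UMIs of these genes too. The top 5 held 42.8% of injured and 54.55% of naive UMIs for Nrg1, and 51.65% and 67.6% for Gpc5. The shares were 48.4% and 64.5% for Sorcs1, 60.7% and 73.8% for Kcnh8, and 83.9% and 72.9% for Edil3. Among members with at least 30 thinned Kcnip4 UMIs alone, a choice made after seeing the data, Sorcs1 had a ratio of 1.26 (0.653 to 2.47), Nrg1 2.51, Gpc5 4.46 and Kcnh8 2.06 (0.869 to 5.25). With Pnoc of at least 3 the ratios of Gpc5 (0.709) and Kcnh8 (0.956) turned round, and without the 10% of members with most UMIs that of Edil3 (0.769) did. The log2 ratios were smaller in nuclei with Xist and no Y-linked UMIs than in the few with Y-linked and no Xist UMIs. In that order they were 0.55 and 3.18 for Sgcd, 0.24 and 3.98 for Kcnh8 and 0.69 and 1.93 for Nrg1. For Sorcs1 they were 0.50 and 3.16, for Gpc5 0.91 and 2.41 and for Edil3 0.51 and 4.28. Ptprt turned round without the Kcnip4-low nuclei, at 0.518 (139 and 269 CPM) in all members and 1.38 (0.666 to 2.92) in those.

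Lrrc49 had 128 CPM in injured and 55.1 CPM in naive nociceptin nuclei (2.33, 1.61 to 3.44) and a UMI in 66.7% and 33.0% of them, and the ratio was 2.63 without the Kcnip4-low nuclei. Fam222b (108 and 59.0 CPM, 1.84) had a UMI in 59.3% of injured and 38.1% of naive nuclei, and Oxr1 (257 and 142 CPM, 1.81), known for protection against oxidative damage, in 69.1% and 50.5%. Cab39l (112 and 61.7 CPM, 1.82) overlaps Cdadc1 on the opposite strand. Prkdc, a DNA repair kinase, was at 102 and 56.4 CPM (1.80, 1.22 to 2.69), and at 1.40 (0.902 to 2.18) without the Kcnip4-low nuclei. Zfp804b, a zinc finger gene, had 225 and 108 CPM (2.09), with 38.7% of its injured and 47.6% of its naive UMIs in 5 nuclei. It stood at 450 and 428 CPM in Kcnip4-low nuclei, and its ratio was 3.49 without them.

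On the lower side, Chgb stood at 246 CPM in injured and 441 CPM in naive nociceptin nuclei (0.559, 0.464 to 0.671), and at a ratio of 0.590 without the Kcnip4-low nuclei. In the other inhibitory nuclei the same gene stood at 212 and 299 CPM. Ubb, a ubiquitin gene, was at 114 and 198 CPM (0.574, 0.435 to 0.754), the calcium pump Atp2b4 at 53.5 and 104 CPM (0.516), the protocadherin Pcdh19 at 50.8 and 95.8 CPM (0.531) and Impact at 64.2 and 125 CPM (0.515). Fbxo36 had the lowest ratio (80.3 and 163 CPM, 0.494), but it overlaps Trip12 on the opposite strand, and whether counting used strand is not given in the sources used here. Rorb had a ratio of 1.51 (356 and 236 CPM, 1.24 to 1.83) and Nos1 of 0.658 (122 and 185 CPM, 0.5002 to 0.863). In the other inhibitory nuclei Nos1 was also lower in the injured library, at 50.2 and 78.1 CPM, and Rorb stood at 572 and 495 CPM. The part of a difference between the whole libraries in these ratios was not tested. The Rorb side held 28.4% of injured and 22.7% of naive nuclei and the Pcdh7 side 51.9% and 61.9%, with overlapping intervals, and the part of these shares in the ratios was not tested. Of the opioid list outside the rule only Oprm1 had 100 UMIs (158 and 194 CPM). Of the 3 heat shock genes and the 6 sodium and HCN channel genes with at least 100 UMIs, 0 were past 1.5-fold; the other members of these lists had too few UMIs to be counted. The summed oligodendrocyte markers, 153.9 CPM in injured and 62.96 CPM in naive nociceptin nuclei, also differed, and their part in the ratios was not tested.

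**Figure D5:**
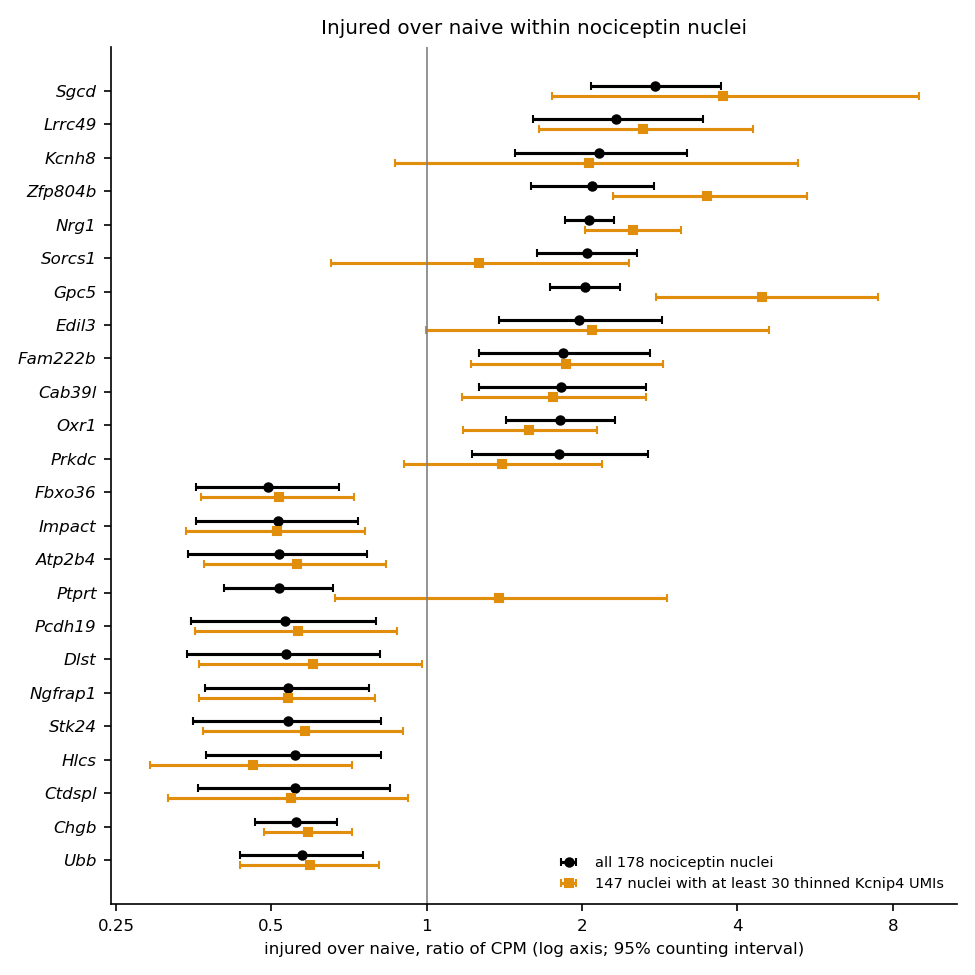
Ratio of injured over naive CPM (log x axis, 95% counting intervals) for the 12 highest and 12 lowest named genes, in all 178 nociceptin nuclei (black circles) and in the 147 with at least 30 thinned Kcnip4 UMIs (orange squares). Lrrc49, Nrg1, Chgb and Ubb keep a ratio on the same side of 1 with intervals that leave out 1, whereas Sorcs1, Kcnh8, Prkdc and Ptprt have intervals that include 1 in the smaller set. The intervals do not cover spread between nuclei. For Nrg1, 5 nuclei held 42.8% of the injured and 5 held 54.55% of the naive UMIs of all 178 nuclei.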

How the data were processed

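Nuclei were sequenced with 10x 3' chemistry, version 3, per the labels' protocols. Per the submitters' processing notes, Cell Ranger 3.0.2 and Seurat were used, with the genome build mm10. No source states if strand was used in counting. The deposited counts are whole UMIs per gene and nucleus. The deposited normalized values are natural logs (a pseudocount of 1, each nucleus scaled to 10000), checked on 5 genes, and were not used further. The members and gene lists were chosen with earlier results of these data known. Counts were summed per set and library and tested with edgeR 4.0.16 in R 4.3.3 (TMM, library and set as terms, mean CPM of at least 5), with DESeq2 1.42.0 as an alternative. A group is 1 pooled library, so p-values rest on the spread between these 2 libraries, pooled over genes, and not on spread between mice. In simulated counts, 86% of genes changed 2-fold were recovered for the comparison with other inhibitory nuclei (11324 genes). The share was 82% for nuclei without Pnoc (11397) and 82% for Pnoc nuclei with galanin or dynorphin (11208). Among calls, 3.12%, 1.62% and 6.19% were false in that order, the last above the 5% aimed at. For genes changed 4-fold, 100% were recovered in each. Changed genes were drawn only from those well above the CPM limit of the test, and all genes were given the same spread. The rates therefore need not hold for genes near that limit. Genes were named as the 12 highest and 12 lowest log2 fold changes among calls that agree in direction in both libraries and are seen in at least 10% of nuclei of the higher set, plus the extremes of each list; in text, list members were added by role after their values were seen. The 12 highest and 12 lowest ratios of injured over naive were taken only from genes whose direction agreed between 2 subsets. These were nuclei with Xist and no Y-linked UMIs and nuclei with Y-linked and no Xist UMIs. Ratios of injured over naive have exact conditional 95% intervals and no test. Intervals and floors (3 UMIs) cover counting error only. No doublet caller was run; leaving out nuclei that hold Xist together with Y-linked UMIs was tried as an alternative. Of 19575 genes, 18808 matched GENCODE vM21 (GRCm38), the source of coordinates. Results of a few genes are not reported here.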

Additional observations from a re-analysis of the deposited data

Results flagged for a closer look

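Of 1004 combinations of a named or list gene and a comparison, 10 had ratios on opposite sides of 1 in the injured and naive libraries, with both counting intervals leaving out 1. The difference between the libraries was not tested in any of them, and with 1 library per group it has no replicate check. Prkdc, a DNA repair kinase, stood 1.4-fold higher in injured nociceptin nuclei than in the other inhibitory nuclei and at a ratio of 0.724 in naive ones. Against nuclei without Pnoc its ratios were 1.47 in injured and 0.626 in naive nuclei. In that comparison the cadherin Cdh11 had ratios of 1.39 and 0.801, and the cadherin Cdh18 of 0.727 and 1.1.

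Against Pnoc nuclei with galanin or dynorphin, Lrrc49 had a ratio of 1.33 in injured and 0.487 in naive nociceptin nuclei. Ptprt, a tyrosine phosphatase, had 0.687 and 1.41. The potassium channel Kcnh1 had 0.677 in injured and 1.35 in naive nuclei. Smaller differences were those of the potassium channel Kcnd2 (1.07 and 0.943) and the calcium channel subunit Cacna2d3 (1.09 and 0.841). The neuropeptide gene Sst, at 12.7 in injured and 0.207 in naive nuclei, rests on 5 and 2 UMIs in the nociceptin nuclei.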

How the results depend on the processing

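The shares of nociceptin nuclei in injured and naive were 2.17% and 1.998% after thinning, 11.5% and 11.4% with Pnoc of at least 1, and 1.40% and 1.85% with Pnoc of at least 3. Against other inhibitory nuclei, genes higher and lower numbered 136 and 96 in DESeq2, 134 and 128 without the replicate block, and 174 and 153 after thinning, with 237 higher at Pnoc of at least 3. Against nuclei without Pnoc they numbered 223 and 194 in DESeq2 and 370 and 392 after thinning. Against Pnoc nuclei with galanin or dynorphin they numbered 30 and 15 in DESeq2, 42 and 23 without the replicate block, 4 and 15 with Pnoc of at least 3, and 72 and 59 after thinning. All calls of DESeq2 and of the fit without the block were among those with it; the block is the library, which holds both sets of each pair, and without it the nuclei without Pnoc gave 572 and 573.

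Each library alone has no test; genes in the called direction in a single library numbered 376 higher and 324 lower, 680 to 683 and 658, and 184 to 185 and 116, in the order of comparisons above. With the reference that has galanin or dynorphin held to the rule's other limits, a choice made after seeing the data, 174 and 84 were called. Against other inhibitory nuclei, the members with at least 30 thinned Kcnip4 UMIs, chosen likewise, gave 507 and 473.

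Injured over naive, genes past 1.5-fold upward and downward numbered 178 and 209 after thinning (6.76% and 7.93% of 2635 genes). They numbered 87 and 108 (3.3% and 4.1%) in nuclei with Xist and no Y-linked UMIs. With Y-linked and no Xist UMIs they numbered 322 and 301 (12.2% and 11.4%), and with Pnoc of at least 3, 204 and 234 (7.74% and 8.88%). Among the 4890 genes with at least 50 UMIs they numbered 161 and 274 (3.29% and 5.6%). These settings leave fewer UMIs per gene than the main one, and the part of counting error in the larger counts was not tested. In members with at least 30 thinned Kcnip4 UMIs, 89 genes (3.38%) were past 1.5-fold downward. With Pnoc of at least 3, Pcdh15 (-0.45) and Sgcd (-2.13) turned round against Pnoc nuclei with galanin or dynorphin on the log2 scale, and the injured over naive ratios of Sgcd (0.833), Kcnh8 (0.956) and Gpc5 (0.709) did so as well. Without the 10% of members with most UMIs, Sgcd (0.22) and Edil3 (0.769) turned round, and in members with at least 30 thinned Kcnip4 UMIs Ptprt (1.38) did. The cause was not tested. Of the values for single genes under alternatives, 797 were counted as kept, 124 lost the call, 37 were ratios that moved out of their main counting interval, and 8 reversed. Kept values include directions in a single library and ratios within their main counting interval, neither of which has a test. Few UMIs lie behind the values of Oprd1, Oprl1 and the kinds of nuclei.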
